A study of Mus musculus with 10 samples.

Results

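The Ly6 surface antigens are a family of small proteins held on the outer cell membrane, and 5 of their genes, Ly6c1, Ly6c2, Ly6i, Ly6a and Ly6e, were followed in macrophages from drug-resistant melanoma. The members were taken by gene symbol, with earlier results of these data known. They are 5 of 55359 genes in the deposited count tables and 5 of 14374 genes with enough reads to be tested. RNA was sequenced in bulk from F4/80+ cells sorted from Braf-mutant melanomas that had rebounded under daily Braf and Mek inhibitors, in 10 libraries from male mice. Both groups carried an RFP allele of Ccr2, the chemokine receptor that lets inflammatory monocytes leave the bone marrow. The 5 control libraries were Ccr2RFP/+, with a working allele left beside the RFP allele, and the 5 Ccr2 KO libraries were Ccr2RFP/RFP, with none, so no library came from mice free of RFP. All 10 had the same inhibitors. The sources used here do not give the age of the mice, the tumour line or transgene, or how many animals made up a library. The comparison asks how the Ly6 genes of tumour macrophages differ when Ccr2 is missing.

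Ly6 proteins share a compact fold pinned by disulfide bonds, the fold also found in the urokinase receptor and in Cd59, and are anchored by glycosylphosphatidylinositol (GPI), a lipid added to the end of the protein in the endoplasmic reticulum. Their genes lie side by side in mouse, and many arose by duplication. Ly6c1 and Ly6c2 together encode Ly6C, the antigen by which mouse monocytes are divided into an inflammatory Ly6C-high class, which depends on Ccr2 to reach tissue, and a patrolling Ly6C-low class. Ly6c2 is the copy known from monocytes, while Ly6c1 is also known from endothelial cells. Ly6a encodes Sca-1, a marker of blood stem cells that interferon induces in many cell types. Ly6e is a broadly expressed interferon-induced member.

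Promoters are shown for Ly6c2, the member that differed most between genotypes, for its closest namesake Ly6c1 and for the neighbouring gene Ly6a2, which lies next to Ly6c2 and was also lower in Ccr2 KO. Each line holds the 250 bases before a RefSeq transcription start on the minus strand, from build GRCm38.p6, which is not the build of the counts, and capitals mark the letters GAGGAAGT, a PU.1-like motif. PU.1 is a transcription factor of the myeloid lineage. RefSeq lists another start for Ly6c1 and for Ly6c2, which are described but not printed. The bases just after the start lay in a GENCODE release M21 transcript of the gene for Ly6a2 and the unprinted Ly6c1 start. They did not for the printed Ly6c1 start or for either Ly6c2 start.
Ly6c2, chr15:75111972-75112221: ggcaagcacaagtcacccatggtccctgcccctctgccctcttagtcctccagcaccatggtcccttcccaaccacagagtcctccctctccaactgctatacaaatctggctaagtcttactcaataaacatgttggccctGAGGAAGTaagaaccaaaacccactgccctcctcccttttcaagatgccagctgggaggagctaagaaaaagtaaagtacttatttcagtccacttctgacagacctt
Ly6a2, chr15:75135129-75135378: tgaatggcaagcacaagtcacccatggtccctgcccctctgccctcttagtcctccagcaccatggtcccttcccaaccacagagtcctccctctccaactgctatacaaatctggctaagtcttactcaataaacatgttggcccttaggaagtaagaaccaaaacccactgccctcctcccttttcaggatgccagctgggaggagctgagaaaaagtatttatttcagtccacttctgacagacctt
Ly6c1, chr15:75048838-75049087: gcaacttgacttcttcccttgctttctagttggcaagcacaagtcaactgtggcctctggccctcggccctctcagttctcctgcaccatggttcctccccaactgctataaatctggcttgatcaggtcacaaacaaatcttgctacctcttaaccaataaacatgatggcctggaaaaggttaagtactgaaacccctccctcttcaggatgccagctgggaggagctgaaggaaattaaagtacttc
The Ly6c2 and Ly6a2 windows were identical at 242 of 245 aligned bases (98.8%), and those of Ly6c1 and Ly6c2 at 170 of 210 (81.0%). On both strands, GAGGAAGT occurred 1 time before the start of Ly6c2 shown here, beginning 108 bases ahead of it, and 2 times before the other start of Ly6c2. These windows overlap, with 216 bases in common, and the printed site is 1 of those 2. It occurred 1 time before the start of Ly6c1 that is not printed, and not in the printed windows of Ly6c1 and Ly6a2. Of 32851 promoter windows of the same length, 2.44% held it. The interferon-type motifs GAAANNGAA and TTCNNNGAA and the C/EBP-like motif TTGCNNAA, held by 7.13%, 7.02% and 9.56% of the windows, did not occur in any of these 5. RefSeq promoters of Ly6i, Ly6a and Ly6e were not used here.

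The libraries held between 34639808 and 43360206 counts in genes. Ccr2 had 2225 to 7270 counts in control and 147 to 261 in KO libraries (log2 fold change -4.66, SE 0.33, edgeR adjusted p = 0.000139), so each library matched its genotype label. Adgre1, which encodes F4/80, stood at 1826 ± 114 CPM (read counts scaled by library size) in control and 1836 ± 189 in KO libraries (SD, n = 5 each), and the 18 core macrophage markers summed to between 38264 and 50660 CPM in every library. Control libraries 3 and 4, and 1 and 2, were closer than any other pair, with a median absolute log2 difference over tested genes of 0.132 and 0.134, against 0.205 to 0.461 for all other pairs. Whether each library was a separate animal is not stated in the labels, and a p-value here reflects only how far these libraries scatter, in part perhaps for technical reasons. Results were also computed with the close control pairs summed, and with KO libraries 4 and 5 left out or summed as well. Those KO libraries were less alike, at 0.242, and were not the next closest pair. KO libraries 2 and 5 stood at 0.235, and control library 3 and KO library 2, of different genotype, at 0.205.

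Ly6c2 and Ly6i, 2 of the 5 members, fell in Ccr2 KO macrophages, and Ly6c1, Ly6a and Ly6e did not pass the test. Ly6c2 stood at 6.38% of its control level and Ly6i at 14.5%. Over all genes tested, 0.543% were called lower, 0.87% higher and 1.41% in either direction (edgeR adjusted p under 0.05). In these 2 members all KO libraries lay below all control libraries, as did 2.02% of all tested genes, and in either direction 4.7% of genes did not overlap. All 5 members had a negative log2 fold change, with a median of -0.82, where the median of all tested genes was -0.0034. In bulk RNA from sorted cells, fewer cells of a type and less RNA per cell cannot be told apart.

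**Figure D1:**
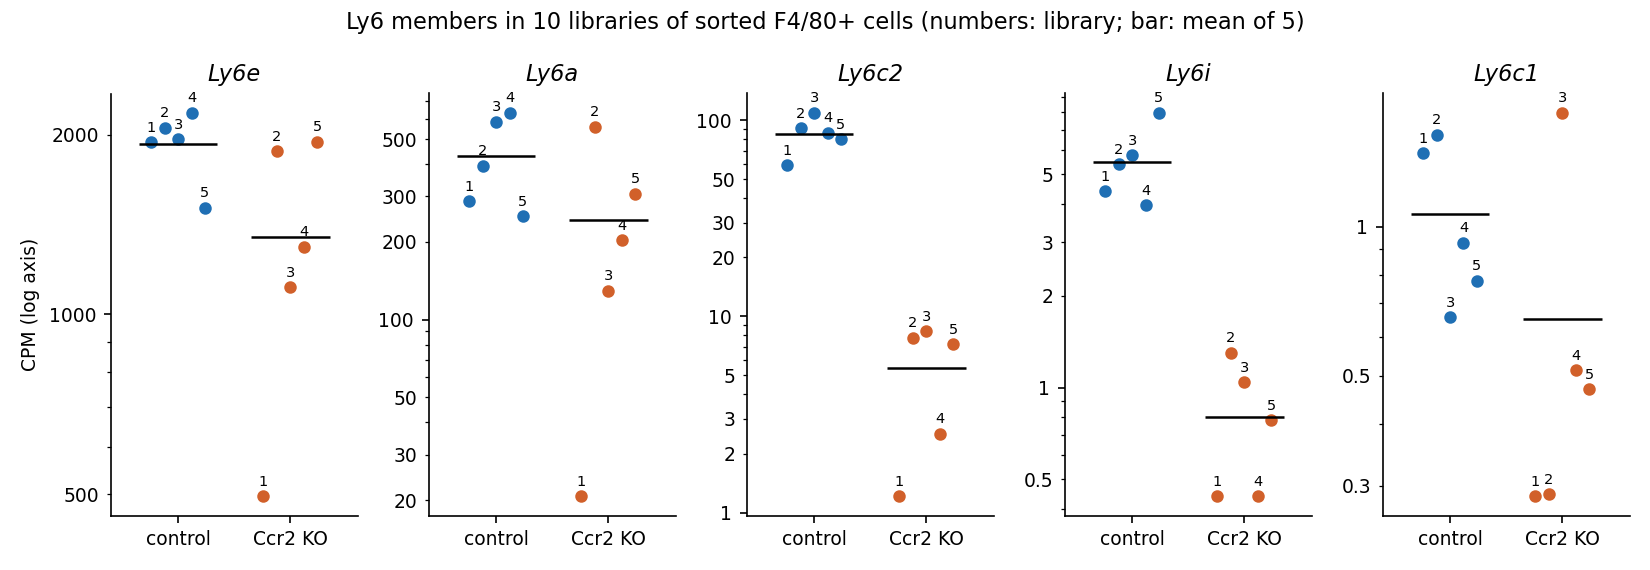
Normalised level (CPM, log axis, a separate scale for each gene) of the 5 Ly6 genes in each library of control and Ccr2 KO macrophages; each point is a library, its number the replicate, and the bar is the mean of 5. Control and KO points are apart in Ly6c2 and Ly6i and overlap in Ly6e, Ly6a and Ly6c1, where KO library 3 is the highest point at 1.70 CPM.

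Ly6c2 (ENSMUSG00000022584), the monocyte Ly6C gene, had 59.0, 91.3, 109, 86.4 and 80.0 CPM in control libraries 1 to 5 and 1.21, 7.80, 8.41, 2.52 and 7.23 CPM in KO libraries 1 to 5. The lowest control library was thus well above the highest KO library, while KO libraries 1 and 4 lay below the other 3. These values rest on 2222 to 3828 counts in control and 55 to 332 in KO libraries. The mean fell from 85.2 ± 18.3 to 5.43 ± 3.32 CPM (SD, n = 5 each), a 15.7-fold difference (log2 fold change -3.97, SE 0.48, edgeR adjusted p = 0.00353). With any single library left out, the adjusted p stayed between 0.00207 and 0.0134. It was 0.0367 with the close control pairs summed and 0.0806 with KO libraries 4 and 5 summed too, where the log2 fold change was -3.92.

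Ly6i (ENSMUSG00000022586), a relative of the Ly6C genes, had 4.41, 5.41, 5.77, 3.96 and 7.97 CPM in the control libraries and 0.439, 1.30, 1.04, 0.440 and 0.783 CPM in the KO libraries. Control library 5 was the highest, and as for Ly6c2 the lowest values were those of KO libraries 1 and 4. Counts were low, 166 to 328 in control and 18 to 54 in KO libraries. The mean fell from 5.50 ± 1.56 to 0.800 ± 0.376 CPM (SD, n = 5 each; log2 fold change -2.78, SE 0.35, edgeR adjusted p = 0.00429). The adjusted p was 0.00454 to 0.0183 with a single library left out, 0.0379 with the control pairs summed, and 0.0920 with KO libraries 4 and 5 summed as well.

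Most markers of the Ly6C-high monocyte, from a list of 16 tested genes without the members, were lower alongside these 2 genes. Of the 16, 7 fell, none rose, and 13 had a negative fold change, with a median of -2.20. Ccr2, the altered gene itself, is in the list and counts among the 7. Besides Ccr2, Plac8, a gene of myeloid cells, fell from 94.5 ± 14.98 to 6.02 ± 3.998 CPM (adjusted p = 0.00226), and the orphan receptor gene Gpr141 from 16.5 ± 5.19 to 1.88 ± 0.855 CPM (adjusted p = 0.00322). Chil3, Mcemp1 and Cd177 were among the others that fell. The summed level of the list did overlap, at 3738 to 8242 CPM in control and 3087 to 5772 CPM in KO libraries. The abundant F13a1 and Fn1 were among the 3 with a positive fold change and did not pass the test. F13a1 stood at 981 ± 387 in control and 1451 ± 511 CPM in KO libraries, and Fn1 at 2281 ± 1235 and 2529 ± 1070 CPM. Without KO libraries 4 and 5 the count was 4 of 16, with the control pairs summed 5, and with KO libraries 4 and 5 summed as well 1. Each of these counts includes Ccr2, which was called under all 22 alternatives.

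Neutrophils also carry Ly6C, and their markers stood lower in the same direction without passing. Of 11 tested neutrophil genes, 11 had a negative fold change and none passed in edgeR, with a median of -2.09. An unadjusted p under 0.05 was reached by 6, DESeq2 called 4 and limma-voom none. Csf3r, the receptor of a granulocyte growth factor, stood at 162 ± 15.3 and 110.4 ± 22.1 CPM with no overlap. The granule gene Mmp8 stood at 12.9 ± 8.94 and 2.32 ± 1.98 CPM. The list summed to 166 to 680 CPM in control and 116 to 227 CPM in KO libraries. Ly6g, the defining surface antigen of neutrophils, had 0 to 13 counts per control library and 0 to 2 per KO library. The part of neutrophils in the fall of Ly6c2 and Ly6i was not tested.

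Of the patrolling Ly6C-low monocyte list, 14 genes were tested and none passed in edgeR. Here 5 had an unadjusted p under 0.05, all lower, DESeq2 called 3 and limma-voom 1, and the median log2 fold change was -0.35. Gngt2 stood at 176 ± 12.8 in control and 117 ± 25.4 CPM in KO libraries with no overlap (edgeR adjusted p = 0.0785). Cd300e stood at 89.8 ± 49.4 and 30.3 ± 9.94 CPM (edgeR adjusted p = 0.133).

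Among the neighbours of the members on chromosome 15, 1 further gene fell. From Psca to Gpihbp1, the ends of the cluster in the annotation used for gene order, 50 genes were in the count table, 28 of them with no count in any library and 11 tested. Beside the 5 members, the tested genes were Them6, Lynx1, Ly6m (in the count table under the older name 2010109I03Rik), Gm39556, Ly6a2 and Gpihbp1. Ly6a2, listed as I830127L07Rik and lying next to Ly6c2, was called lower, and no gene of the cluster was called higher. GENCODE release M21 classes it as a transcribed unprocessed pseudogene.

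Ly6a2 (ENSMUSG00000102051) had 131, 215, 96, 125 and 260 counts in control libraries 1 to 5 and 0, 2, 25, 0 and 4 in KO libraries 1 to 5. KO library 3 held 25 of these few KO counts, and the groups did not overlap. A count of 0 allows up to 3 counts, or 0.0659 CPM in KO library 1 and 0.0733 CPM in KO library 4 (counting error only). In CPM the means were 4.15 ± 1.58 and 0.157 ± 0.270 (SD, n = 5 each; log2 fold change -4.72, SE 0.94, edgeR adjusted p = 0.0377). The call was lost under 13 of 22 alternatives, among them each single library left out except KO library 3, with adjusted p up to 0.313, while the fold change stayed negative in all 22.

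Gm39556, a long non-coding RNA gene near Ly6e, had 95 to 135 counts in control and 39 to 80 in KO libraries. Its groups did not overlap, yet it was not called (2.83 ± 0.369 and 1.48 ± 0.470 CPM, log2 fold change -0.93, SE 0.25, edgeR adjusted p = 0.108). The remaining 4, Them6, Lynx1, Ly6m and Gpihbp1, had log2 fold changes of 0.27, -0.43, 0.65 and -0.52 and overlapped between the groups. The genes that fell thus lay among neighbours that did not pass the test.

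**Figure D2:**
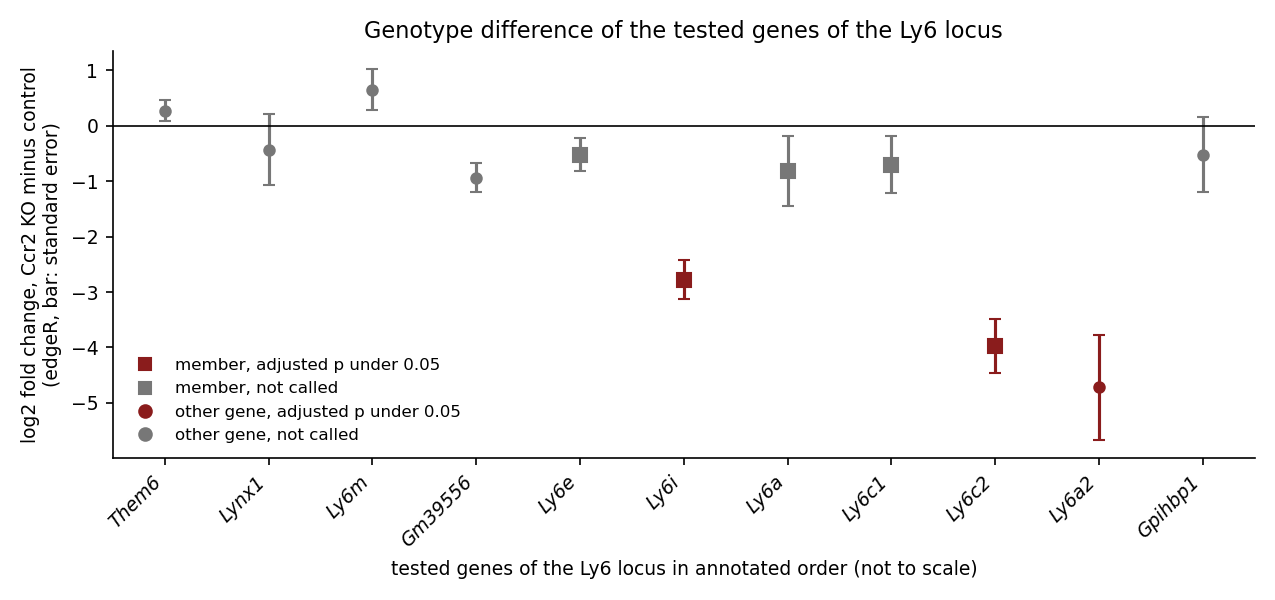
Genotype difference (log2 fold change, Ccr2 KO minus control, vertical axis) of the 11 tested genes from Them6 to Gpihbp1, in their annotated order and not to scale; squares are the 5 members, circles other genes, bars the standard error, and red marks an adjusted p under 0.05. Ly6i, Ly6c2 and Ly6a2 lie at -2.78, -3.97 and -4.72, and the other 8 genes lie between -0.93 and 0.65.

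Ly6c1 (ENSMUSG00000079018), the other Ly6C gene, was scarce in these cells, at 1.41, 1.53, 0.657, 0.927 and 0.777 CPM in the control libraries and 0.286, 0.289, 1.70, 0.513 and 0.470 CPM in the KO libraries. KO library 3 was above every control library, and the other 4 KO libraries were below every control library. The counts behind these values were 23 to 62 in control and 12 to 67 in KO libraries. The means were 1.06 ± 0.388 and 0.651 ± 0.594 CPM (SD, n = 5 each; log2 fold change -0.70, SE 0.51, edgeR adjusted p = 0.538). Without KO library 3 the log2 fold change was -1.44 (adjusted p = 0.0810).

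The summed level of 15 fibroblast markers, like Ly6c1, was highest in KO library 3, at 3739 CPM, against 789 to 2488 CPM in the control libraries and 369 to 749 CPM in the other KO libraries. The collagen genes Col3a1 and Col1a1 made up 2219 and 785 of the 3739 CPM, and gene by gene 7 of the 15 were highest in KO library 3 and 8 in a control library. None of the 15 passed in edgeR, 2 had an unadjusted p under 0.05, both lower, DESeq2 called 2 lower and limma-voom none, and the median log2 fold change was -0.43. The 2 were the matrix genes Mfap5, at 1.49 ± 0.802 in control and 0.347 ± 0.156 CPM in KO libraries with no overlap (adjusted p = 0.0613), and Col5a2, at 43.1 ± 13.5 and 21.2 ± 5.11 CPM (adjusted p = 0.0687). The 17 endothelial markers summed to 116 to 201 CPM in control and 79.8 to 158 CPM in KO libraries. Of the 12 tested, none passed in edgeR, where 2 lower and 1 higher had an unadjusted p under 0.05, DESeq2 called 2 lower and limma-voom none. Pecam1, the endothelial and leukocyte adhesion gene Cd31, stood at 33.9 ± 20.8 and 9.84 ± 3.28 CPM with no overlap (adjusted p = 0.0673). The part of fibroblasts and endothelial cells in the Ly6c1 counts was not tested.

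Ly6a (ENSMUSG00000075602), encoding Sca-1, had the widest spread of the members. It had 287, 394, 583, 632 and 251 CPM in the control libraries and 20.7, 557, 129, 203 and 308 CPM in the KO libraries. KO libraries 2 and 5 lay within the control range, and KO libraries 1, 3 and 4 lay below it. The highest KO library was 26.9-fold above the lowest, against 2.52-fold among control libraries. The means of 429 ± 172 and 244 ± 204 CPM (SD, n = 5 each) differed by less than this spread (log2 fold change -0.82, SE 0.63, edgeR adjusted p = 0.561). Leaving out KO library 2 gave -1.38 (adjusted p = 0.280) and leaving out KO library 1 gave -0.52.

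Ly6e (ENSMUSG00000022587) was the most abundant member, with 1941, 2054, 1967, 2176 and 1509 CPM in the control libraries and 495, 1877, 1111, 1297 and 1946 CPM in the KO libraries. Again KO libraries 2 and 5 were within the control range and KO libraries 1, 3 and 4 below it. The means were 1929.6 ± 252 and 1345 ± 597 CPM (SD, n = 5 each; log2 fold change -0.52, SE 0.30, edgeR adjusted p = 0.434). Per library, Ly6e made up 73.8% to 84.7% of the summed member CPM in control and 76.8% to 95.6% in KO libraries, and Ly6c2 2.57% to 4.33% and 0.168% to 0.673%.

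Ly6a and Ly6e stood high and low in the same libraries as the interferon response. The 22 genes of the type I interferon list, which holds neither, summed to 2522, 3056, 3835, 4016 and 1970 CPM in the control libraries and 792, 3534, 1240, 2014 and 3186 CPM in the KO libraries. KO library 1 was thus the lowest and KO library 3 the next in the list, in Ly6a and in Ly6e. This order was not particular to the type I list. The same 2 libraries were lowest in the summed interferon gamma list, at 1114 and 1498 CPM, and in the Ly6C-low monocyte list, at 1086 and 1209 CPM. They were also lowest in the plasmacytoid dendritic cell list, at 349 and 546 CPM. None of the 22 passed in edgeR, and DESeq2 and limma-voom called none. Oas2 and Ifi44, both lower, were the 2 with an unadjusted edgeR p under 0.05. A negative fold change was found in 21 of the 22, with a median of -0.58. Oas2, a sensor of viral RNA, stood at 78.8 ± 21.3 in control and 48.3 ± 23.2 CPM in KO libraries (edgeR adjusted p = 0.321). Ifi44 stood at 21.7 ± 10.6 and 8.78 ± 6.85 CPM (edgeR adjusted p = 0.325). Isg15, a ubiquitin-like protein, stood at 135 ± 32.5 and 75.3 ± 48.0 CPM (edgeR adjusted p = 0.341). Of 20 genes of the interferon gamma list none passed in edgeR, DESeq2 or limma-voom, none had an unadjusted p under 0.05, and the median was -0.11. Ciita, the master regulator of MHC class II, stood at 57.9 ± 24.9 and 27.2 ± 20.8 CPM, and the chemokine gene Cxcl9 at 47.4 ± 10.7 and 73.8 ± 41.1 CPM.

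**Figure D3:**
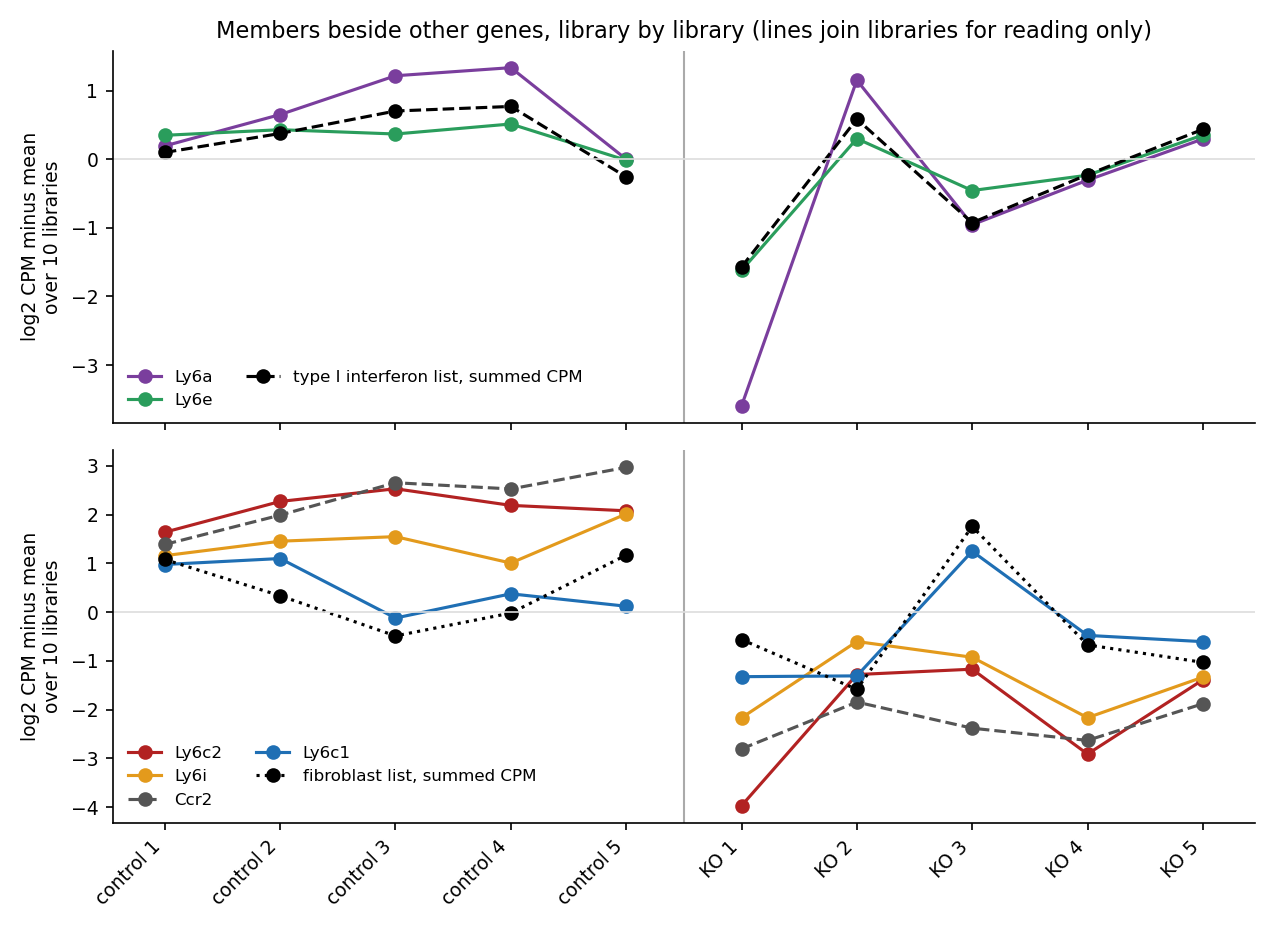
Level of each gene or summed list in each library, as log2 CPM minus its mean over the 10 libraries (vertical axis), with control libraries left and Ccr2 KO libraries right of the grey line; lines join libraries for reading only. In the top panel Ly6a, Ly6e and the summed type I interferon list all have their lowest point in KO library 1, and in the bottom panel Ly6c2, Ly6i and Ccr2 are low in all 5 KO libraries while Ly6c1 and the summed fibroblast list are highest in KO library 3.

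Per kilobase of exon, the scale on which genes of different length can be compared, Ly6e led with 509.9 ± 66.7 CPM per kilobase in control macrophages, followed by Ly6a at 356 ± 143, Ly6c2 at 31.1 ± 6.68, Ly6i at 4.76 ± 1.35 and Ly6c1 at 0.632 ± 0.231 (SD, n = 5 each). Libraries of Ly6e and Ly6a overlapped, and each later step of the order was clear of overlap. In KO macrophages the order of the means was kept, at 355 ± 158 for Ly6e, 202 ± 170 for Ly6a, 1.98 ± 1.21 for Ly6c2, 0.692 ± 0.326 for Ly6i and 0.388 ± 0.354 for Ly6c1. There Ly6c2 overlapped Ly6i, and Ly6i overlapped Ly6c1. Exon lengths came from GENCODE release M21, while the sources used here do not name the annotation behind the counts.

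Ratios between members within a library, which do not depend on library scaling, showed which members differed from each other in their genotype difference. For each of the 10 pairs the log2 ratio was compared between genotypes by an exact two-sided permutation test over libraries, with Benjamini-Hochberg adjustment over the 10 and a smallest possible p of 0.00794. Relative to Ly6e, the log2 ratio of Ly6c2 differed by -3.60 (KO minus control), and relative to Ly6a by -2.90. It was -3.36 relative to Ly6c1 and -1.48 relative to Ly6i, so Ly6c2 fell further than Ly6i. Ly6i over Ly6e differed by -2.12. These 5 exact tests each gave the smallest p and an adjusted p of 0.0159, with all KO libraries below all control libraries. Such tests treat libraries as exchangeable, which the close control pairs limit.

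Ly6i over Ly6c1 differed by -1.88 (exact p = 0.0238, adjusted p = 0.0397), and this passed in only 1 of 12 alternatives, the one without KO library 2, with adjusted p up to 0.0794. The ratio of Ly6i over Ly6a differed by -1.42 (adjusted exact p = 0.136) and that of Ly6a over Ly6e by -0.70 (adjusted exact p = 0.268). The ratios of Ly6c1 over Ly6a and over Ly6e differed by 0.46 and -0.24 (adjusted exact p = 0.698 for both). Differences among Ly6c1, Ly6a and Ly6e were thus not detectable with these libraries.

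Genes whose level followed each member most closely were ranked by the root mean square (RMS) difference of log2 CPM, each gene centred on its own mean over the 10 libraries. The ranking covered 10897 genes whose mean level was 2 CPM or more. It left out the members and genes with a predicted-gene, Rik, pseudogene or accession-type name, so Ly6a2 was not ranked. A smaller value means a more similar course, and all genes share the libraries and their depth. The course includes the step between genotypes, so genes nearest to a member that fell were bound to be mostly lower in KO libraries too. Nearest to Ly6c2 were Plac8 (RMS 0.325), Ccr2 (0.664) and Gpr141 (0.718), where the median gene was at 2.29. Nearest to Ly6i were Gpr141 (0.408), the aspartic protease gene Napsa (0.515) and the integrin gene Itgb7 (0.548), with a median of 1.497. Napsa fell from 80.1 to 13.9 CPM (log2 fold change -2.53, edgeR adjusted p = 0.000192) and Itgb7 from 47.5 to 11.5 CPM (adjusted p = 0.0297), a call that Itgb7 lost in 11 of 22 alternatives.

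Nearest to Ly6a were the complement gene Cfb (RMS 0.374), the MHC class I gene H2-Q7 (0.414) and Ifi208 (0.428), with a median of 1.41, and to Ly6e Oas1a (0.134), Ifi35 (0.177) and H2-T23 (0.181), with a median of 0.669. None of these 6 passed between genotypes in edgeR, DESeq2 or limma-voom. Nearest to the scarce Ly6c1 were Kdelr3 (0.326), Cavin3 (0.329) and the collagen chaperone gene Fkbp10 (0.341), with a median of 0.874, and none of these passed with any of the 3 tools. Among the members, Ly6c2 and Ly6i were 0.902 apart, below the median gene of either, and Ly6c1 and Ly6c2 were 1.89 apart. Ly6a and Ly6e were 0.797 apart, which is below the median for Ly6a and above the 0.669 for Ly6e, a gene that varied less. The value grows with how strongly a gene varies, so it ranks genes for 1 member and not pairs of members.

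No other tested gene from a list of the Ly6 and urokinase receptor fold passed the test. Of 38 listed, 34 were found in the count table by symbol, which leaves out Ly6m under its older name, 16 had no count in any library and 8 were tested. None of the 8 passed in edgeR, DESeq2 or limma-voom, 1 had an unadjusted p under 0.05, and the median log2 fold change was -0.27. That 1 was Ly6g6d, at 1.53 ± 0.236 in control and 2.43 ± 0.846 CPM in KO libraries (adjusted p = 0.277). Plaur, the urokinase receptor, stood at 171 ± 78.0 and 122 ± 75.3 CPM (adjusted p = 0.617). The machinery that makes and attaches the GPI anchor was measured by 28 genes, with a median log2 fold change of 0.05. None passed in edgeR, DESeq2 or limma-voom. Pigz and Pigs, both higher in KO libraries, were the 2 at an unadjusted edgeR p under 0.05. Pigz stood at 13.4 ± 2.59 in control and 19.6 ± 6.43 CPM in KO libraries. Pigs and Gpaa1, both subunits of the enzyme complex that attaches the anchor, stood at 115 ± 12.7 and 138 ± 19.2 CPM, and at 51.6 ± 3.55 and 60.4 ± 9.38 CPM.

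Markers of other cells that can carry Ly6 antigens were present at lower levels than those of macrophages. T and NK cell markers summed to 98.6 to 261 CPM in control and 93.6 to 275 CPM in KO libraries. Cd4, which some macrophages also carry, made up 61.6 ± 12.3 and 135 ± 35.1 CPM of these sums. The sums thus join the rise of Cd4 to lower values of most other genes. Of 18 tested, only Cd4 rose (edgeR adjusted p = 0.0223, lost in 5 of 22 alternatives). None fell in edgeR, where 3 lower genes had an unadjusted p under 0.05, DESeq2 called 3 lower and limma-voom 1, and 17 had a negative fold change, with a median of -1.28. Plasmacytoid dendritic cell markers, of which 8 were tested and none passed (2 at an unadjusted p under 0.05, 1 called by DESeq2, none by limma-voom), summed to 715 to 1282 and 349 to 1197 CPM, of which Irf7, also in the interferon list, made up 634 ± 178 and 372 ± 235 CPM. The 2 were Runx2, at 10.8 ± 4.38 and 5.97 ± 0.879 CPM (adjusted p = 0.148), and Tcf4, at 85.5 ± 4.61 and 70.2 ± 9.09 CPM with no overlap (adjusted p = 0.200). Conventional dendritic cell markers summed to 234 to 273 and 197 to 292 CPM, and Dpp4 was the 1 of 13 that fell (4.55 ± 1.79 to 0.918 ± 0.453 CPM, adjusted p = 0.0297, lost in 10 of 22 alternatives). Of these 13, 9 had a negative fold change, with a median of -0.72, 4 lower genes had an unadjusted p under 0.05, and DESeq2 called 2 lower and limma-voom 1. B and plasma cell markers summed to 207 to 415 and 87.3 to 574 CPM, and none of 7 tested passed (1 at an unadjusted p under 0.05, none by DESeq2 or limma-voom). Melanoma markers summed to 34.2 to 59.0 and 33.2 to 60.7 CPM, with Trpm1 the 1 of 5 that rose (0.326 ± 0.139 to 1.27 ± 0.362 CPM, adjusted p = 0.0270, lost in 9 of 21 alternatives). Keratinocyte markers summed to at most 11.2 CPM, with none of 3 called by any of the 3 tools and none at an unadjusted p under 0.05. Of the 18 core macrophage genes, Cd68 rose from 829.9 ± 49.4 to 1169 ± 115 CPM (adjusted p = 0.0260, lost in 9 of 22 alternatives) and none fell. The part of these cells in the member counts was not tested.

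Sequence shared between the copies limits what the counts can say about each. The row for multimapping reads was 0 in every library, so a read that matched several Ly6 genes equally was counted for none. In the GENCODE M21 transcripts, 10.1% of the 100-base windows of Ly6c1 occurred identically in another gene, 9.06% in Ly6c2. For Ly6c2 it was 5.81%, all in Ly6c1, for Ly6a 1.45%, and for Ly6i, Ly6e and Ly6a2 none. With 50-base windows the shares were 32.8% for Ly6c1, 19.0% for Ly6a, 14.4% for Ly6c2, 9.58% for Ly6a2, 4.76% for Ly6i and 0% for Ly6e. No read length is stated, so levels of all these genes but Ly6e are uncertain to that extent.

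**Figure D4:**
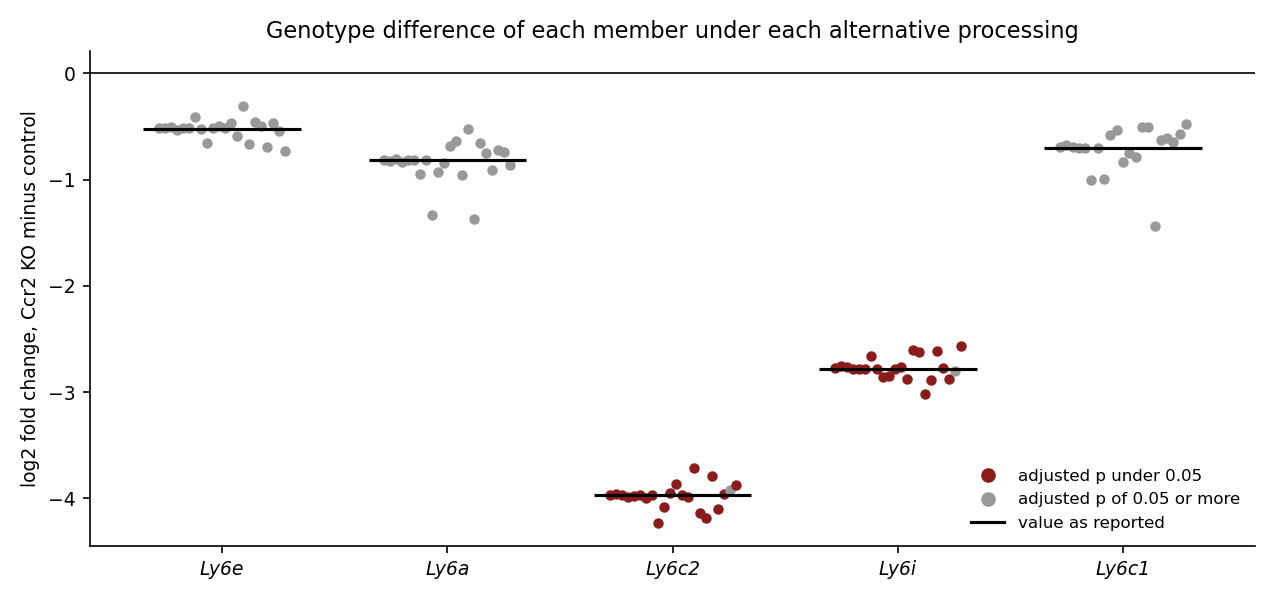
Genotype difference of each member (log2 fold change, Ccr2 KO minus control, vertical axis) under each alternative processing (points) and as reported (bar); red points passed an adjusted p of 0.05 and grey points did not. All points lie below 0; Ly6c2 stays between -4.23 and -3.72 and Ly6i between -3.02 and -2.56, with 1 grey point each, where the 2 close control pairs and KO libraries 4 and 5 were summed.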

How the data were processed

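Poly(A) RNA of sorted F4/80+ cells was sequenced with strand kept, per the labels' protocols. The submitters' processing notes name STAR and GRCm39, and the sources used here give neither version nor annotation. Files deposited by the authors hold raw read counts for each gene. The reverse-strand column held 96.2% to 96.5% of strand-assigned counts and was used. Rows that name no gene were left out, with 6.87% to 8.07% of reads unmapped and 1.83% to 2.10% ambiguous. Of 55359 identifiers, 52083 matched a symbol, and the others held 0.145% of counts. In a combined table, 10 columns carry no names and were not used.

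The gene test was edgeR 4.0.16 in R 4.3.3 (quasi-likelihood F-test, filterByExpr with a minimum count of 10, TMM, Benjamini-Hochberg adjustment over 14374 genes, threshold 0.05). The standard error was the size of the log2 fold change divided by the square root of F. CPM used TMM-scaled library sizes, and log2 CPM a prior count of 2. Alternatives included DESeq2 1.42.0 and limma-voom (limma 3.58.1) with sample quality weights. Every limma-voom result given here is from that weighted fit. The fit was tested on simulated data. Exact permutation tests used scipy 1.17.1, and figures matplotlib 3.10.9.

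The members and all 17 lists were chosen with earlier results of these data known. Genes named were the members, Ccr2, the 3 genes most like each member, and up to 3 genes per list with the smallest p. Ly6a2, Gm39556, Them6, Lynx1, Ly6m, Gpihbp1, Ly6g, Adgre1, Fn1, F13a1, Col3a1, Col1a1, Chil3, Mcemp1 and Cd177 fall outside it, having been picked once their values were known. Not every list member is reported here by name. A planned comparison of the member proteins was not run.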

Additional observations from a re-analysis of the deposited data

Results flagged for a closer look

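Within the 5 KO libraries, KO library 3 stood apart for Ly6c1, at 1.70 CPM where the next highest had 0.513 CPM, a gap of 0.839 of the group's range. It stood apart in the same way for Ly6a2, at 0.634 CPM where the next highest had 0.104 CPM, a gap of 0.835 of the range. Both exceed Dixon's 95% critical value for 5 samples, and they were 2 of 14 groups checked, where chance flags about 1 in 20. The summed fibroblast markers, led by Col3a1 and Col1a1, were also highest in that library, although 8 of the 15 genes were highest in a control library, and the part of fibroblasts in either value was not tested.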

How the results depend on the processing

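Over 22 alternatives, Ly6c2 kept its direction in all and its call in 21, and so did Ly6i. The exception, added after seeing the data, summed the 2 close control pairs and KO libraries 4 and 5, where the log2 fold changes were -3.92 and -2.80 with no call, and the call counts over all genes fell to 4 higher and 4 lower. Ly6c1 (21 alternatives, since a minimum of 1 CPM removed it), Ly6a and Ly6e were never called and always negative. Over all genes, 412 were called higher and 387 lower with DESeq2, 267 and 179 with limma-voom, 12 and 17 with the control pairs summed, and 29 and 21 without KO libraries 4 and 5. Leaving out a single library gave 37 to 135 higher and 25 to 136 lower. Reversed signs were found only in values that were not called. With a single library left out, the log2 ratio Ly6c1 over Ly6a ran from -0.0793 (without KO library 1; also below 0 without KO library 3) to 1.10, and the log2 ratio Ly6c1 over Ly6e from -0.68 to 0.104 (without KO library 2). H2-Q7 ran from -0.77 to 0.0338 (without KO library 1) and Krt10 from -0.0386 (without KO library 3) to 0.295. The cause was not tested. Replicate numbers did not pair the libraries: deviations of same-numbered libraries correlated at -0.529 to 0.344, and 1 of 5 control libraries correlated best with its own number. With the replicate block, 30 genes were called higher and 25 lower, and Ly6c2 (-4.23) and Ly6i (-2.86) stayed called. Low counts limit Ly6c1, Ly6i and Ly6a2 most.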
